A study of Mus musculus with 4 samples.

Results

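The DEAD and DEAH box RNA helicases were compared between wild-type leukaemia cells and leukaemia cells with a conditional knockout of Ybx1. The members were the rows of the deposited expression table whose symbol is Ddx or Dhx followed by a digit, leaving out Ddx58, Dhx58, Ddx3y, pseudogenes and opposite-strand transcripts. This gave 49 genes of 28141, 34 with a Ddx and 15 with a Dhx symbol. The study sequenced polyadenylated RNA of LSCs, as the labels name these bone marrow leukaemia cells of strain C57BL/6. There were 2 groups of 2 libraries, 1 of wild-type cells (WT) and 1 of cells with a conditional knockout of Ybx1 (YBX1cKO in the labels, cKO here). The series title sets the question as the need for Ybx1 in leukaemia stem cells and in chronic myeloid leukaemia. The way the leukaemia was induced, the Cre driver, the deleted exons and the age of the mice are not given by the labels or notes used here. No label said that replicates came from separate mice, so the p-values rest on the spread between libraries alone, and that spread may be technical.

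Helicases of this superfamily use ATP to open RNA duplexes or to strip proteins from RNA. The DEAD box members mostly open short duplexes locally, while many DEAH box members move along a strand. They act in ribosome assembly, splicing, export, translation and decay of RNA, and cells that grow and divide fast make heavy use of ribosome assembly. Ybx1, the gene deleted here, encodes a cold-shock domain protein that binds RNA and DNA.

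The box that names the family is motif II of the helicase core, which helps to bind and split ATP. It was looked for in the longest coding sequence of each gene in GENCODE M21 on GRCm38, in frame, as GAT or GAC, then GAA or GAG, then any codon, then GAT, GAC, CAT or CAC, with a serine, alanine and threonine codon run (motif III) starting 20 to 50 codons later. Of 49 members searched, 44 held it, against 0.428% of 21489 coding genes, the members included. Ddx11, Ddx23, Ddx28, Ddx51 and Dhx32 did not match. The pattern needs both motifs, so a gene without a match may still hold motif II. In 24 members the codons spelled DEAD, in 8 they spelled DEAH, and in 12 the codon between GAA or GAG and the last was not one for alanine. The members on which the results below turn are shown with 12 bases on each side of motif II, which is in capitals, so that paralogues can be compared.
Ddx39: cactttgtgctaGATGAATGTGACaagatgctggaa
Ddx39b: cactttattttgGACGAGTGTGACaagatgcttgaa
Ddx21: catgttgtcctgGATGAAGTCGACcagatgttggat
Ddx50: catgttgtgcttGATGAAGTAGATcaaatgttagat
Ddx5: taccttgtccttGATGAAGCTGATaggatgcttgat
Ddx17: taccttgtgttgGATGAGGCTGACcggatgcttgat
Ddx19a: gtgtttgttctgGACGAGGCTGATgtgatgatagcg
Ddx19b: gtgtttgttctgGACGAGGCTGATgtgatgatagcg
Ddx6: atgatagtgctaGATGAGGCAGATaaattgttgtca
Ddx42: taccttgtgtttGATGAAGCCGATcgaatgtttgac
Dhx8: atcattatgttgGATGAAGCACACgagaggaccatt
Dhx15: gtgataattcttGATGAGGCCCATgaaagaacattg
Dhx33: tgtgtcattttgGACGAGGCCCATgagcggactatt
Dhx37: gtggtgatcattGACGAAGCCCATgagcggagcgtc
All of these stretches are coding exon sequence. Ddx39 lies at chr8:83721098-83721133 in exon 5 of its transcript and Ddx39b at chr17:35247078-35247113 in exon 4, and both have TGT in that place. Ddx21 lies at chr10:62591869-62591904 and Ddx50 at chr10:62640499-62640534, both in exon 6, with the valine codons GTC and GTA there. The stretches of Ddx5 (chr11:106785181-106785216) and Ddx17 (chr15:79538863-79538898) both lie in exon 7 and differ at 6 of 36 bases. Those of Ddx19a (chr8:110979074-110979109) and Ddx19b (chr8:111011323-111011358) differ at 0 bases. In the Ddx6 stretch motif II starts in exon 7, and the stretch runs over an intron, from chr9:44626465-44627655. Ddx42 lies at chr11:106238562-106238597, Dhx8 at chr11:101752128-101752163, Dhx15 at chr5:52171484-52171519, Dhx33 at chr11:70999796-70999831 and Dhx37 at chr5:125426705-125426740.

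The deposited values were on a log scale whose base the sources do not give, and were multiplied by 0.693 to read as log2 levels, a factor chosen by how replicates scatter at each level. If they were plain log2, each log2 fold change here would be 1.44 times as large, with the same p-values. Summed levels and levels per kilobase would change as well. Back-transformed levels summed to 11157952 and 11074317 in WT and to 12104617 and 12134026 in cKO. These sums are not known to be reads, so depth is unknown. Ybx1 itself had log2 levels of 9.31 and 9.41 in WT against 8.19 and 8.13 in cKO, 2.29-fold lower (limma adjusted p = 1.1e-11). Genes of other states moved too. All 18 mitosis genes listed fell (median log2 fold change -1.27), and their summed level was 1587 and 1543 per 1000000 of the library sum in WT and 640 in both cKO libraries. Of 7 mature neutrophil genes tested 6 rose and 1 fell, with sums of 500 and 535 in WT and 1307 and 1322 in cKO. Of 8 monocyte and macrophage genes tested 5 rose, with sums of 6661 and 6772 in WT and 10593 and 10628 in cKO. Both T and NK cell genes tested fell (136 and 137 in WT, 59.7 and 63.7 in cKO), as did 3 of 4 erythroid genes (197 and 189 in WT, 141 and 132 in cKO), and the 1 B cell gene tested rose (22 and 23.9 in WT, 26.4 and 24 in cKO). These counts and sums rest on the listed genes that matched a row: 7 of 15 for neutrophils, 9 of 14 for monocytes, 2 of 12 for T and NK cells, 1 of 8 for B cells and 4 of 12 for erythroid cells. Defining genes such as S100a8, S100a9, Ly6g, Cd3e and Hbb-bs did not match and were not analysed here. Of the genes that matched, 0 stood under a level of 1 in all libraries. The part of these marker genes in the helicase results was not tested, and in bulk RNA fewer cells of a type cannot be told apart from less RNA per cell.

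More helicase genes fell than rose in cKO. All 49 passed the filter on low values, and 21 of them (42.9%) were lower and 5 (10.2%) higher at a limma adjusted p under 0.05, against 17.8% lower and 19.5% higher among all 15527 genes tested. Calls in either direction came to 53.1% of the members and 37.4% of all genes. The members are mostly well expressed. Among the 3782 genes between the members' level quartiles (mean log2 level 7.7 to 9.9), 56.8% were called, 29.7% lower and 27.1% higher. These stand for genes at like level below. The members' mean log2 levels ran from 2.72 to 13.24, so members outside the quartiles are not matched by them. The share called among the 49 members was near that of those genes. The split between falls and rises was 21 to 5 in the members and 1124 to 1026 in those genes. The members' median log2 fold change was -0.17, and that of all genes 0.00. In 28 members both cKO libraries lay below both WT libraries and in 8 they lay above, against 32.4% and 32.7% of all genes tested (65.1% in either direction). Most changes were small: 1 called member, Ddx60, changed at least 2-fold, and 8 had an absolute log2 fold change of at least 0.5.

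The calls rest on a prior variance that follows the level. Without that trend 7 members were lower and 2 higher, namely Ddx11, Ddx18, Ddx21, Ddx39b, Ddx60, Dhx15 and Dhx34 below, and Ddx6 and Ddx42 above. Scaling each library to its sum, tried after the data were seen, moved the median of all genes to -0.122 and gave 29 lower and 3 higher members, with Ddx17 and Ddx41 no longer called. Among all genes that scaling turned 3035 higher and 2768 lower into 2132 higher and 4047 lower.

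**Figure D1:**
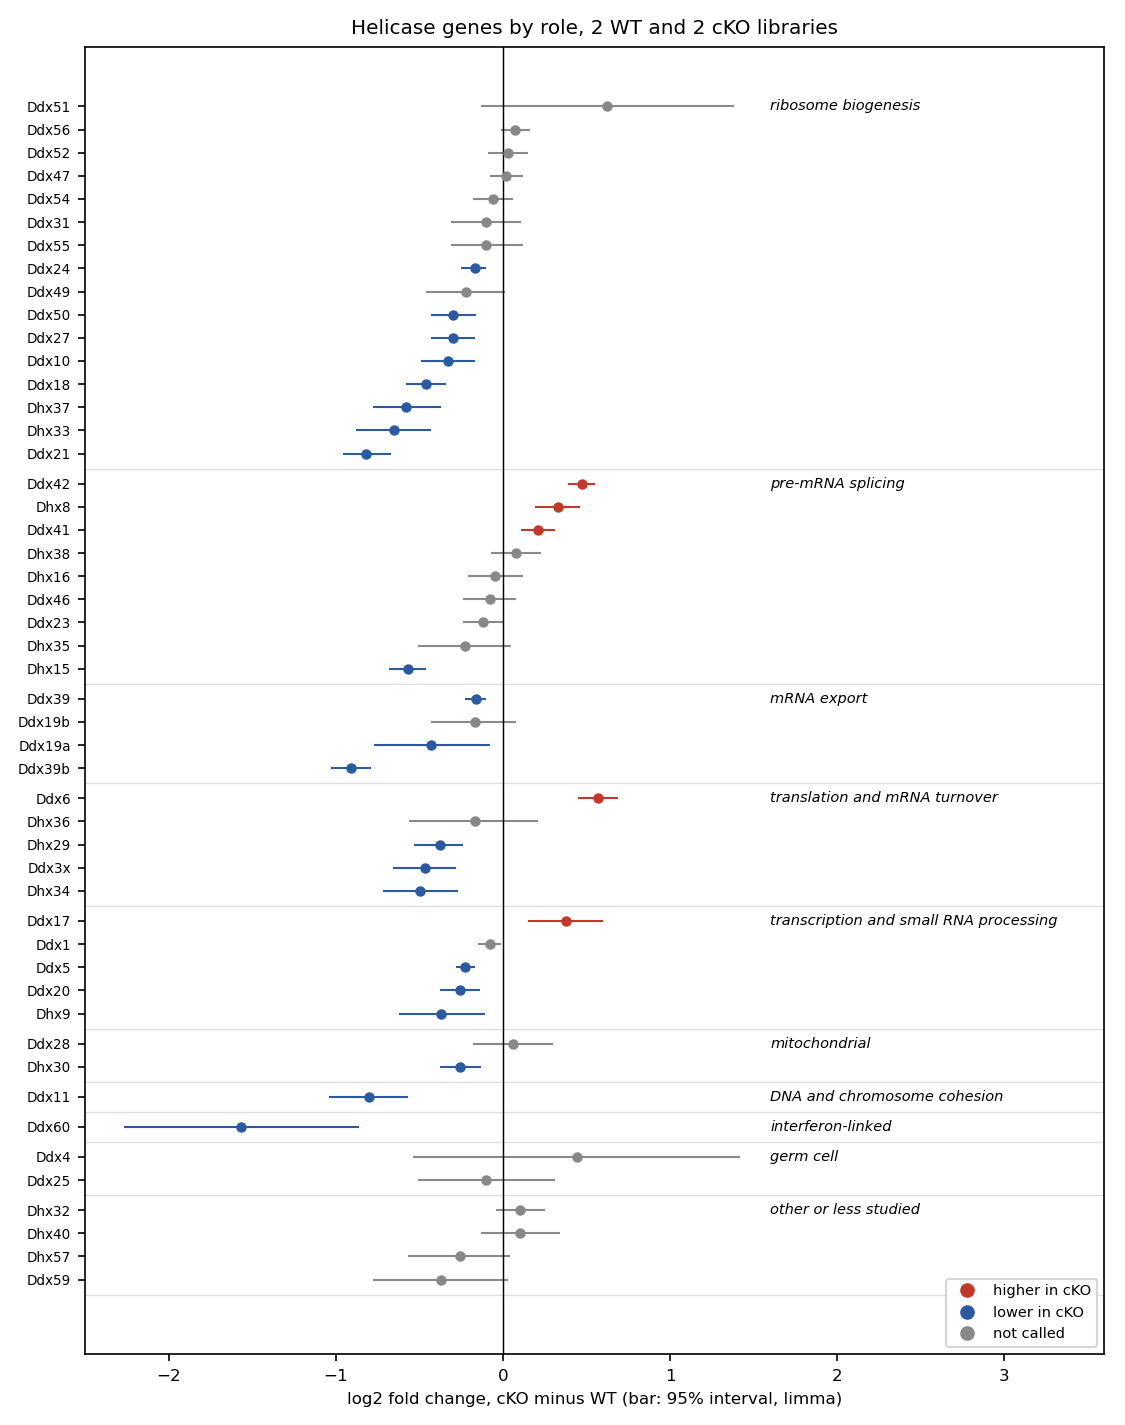
Log2 fold change of each of the 49 helicase genes (x axis, cKO minus WT, with the 95% limma interval) grouped by role (rows), coloured by call. Blue points, lower in cKO, stand in 8 of the 10 role groups, and the 5 red points are Ddx42, Dhx8, Ddx41, Ddx6 and Ddx17.

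**Figure D2:**
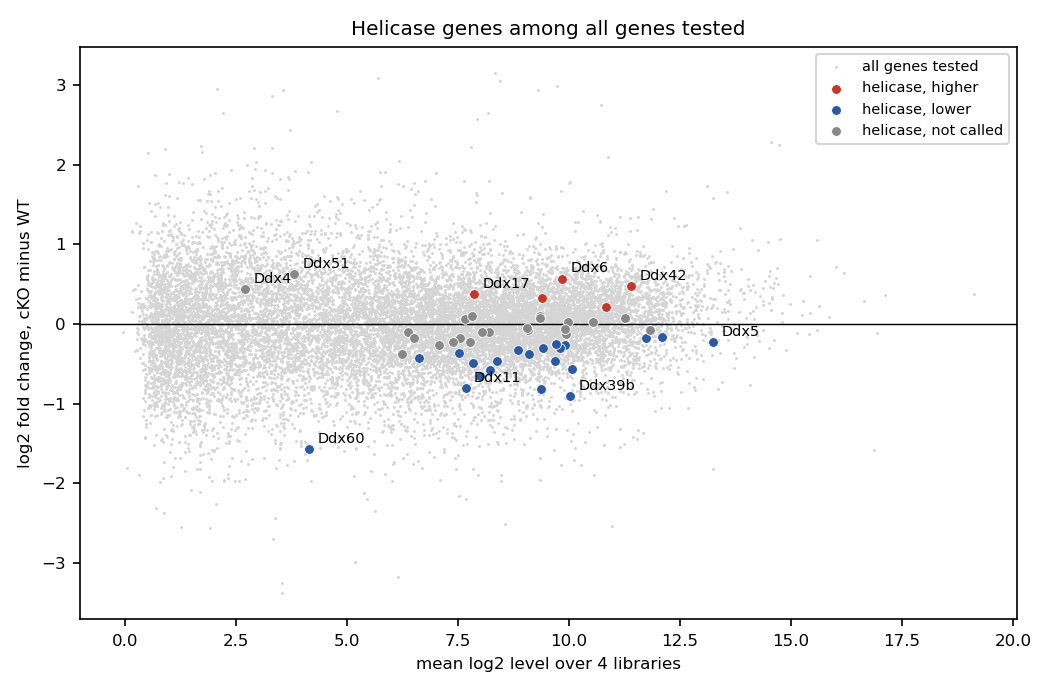
Mean log2 level over the 4 libraries (x axis) against log2 fold change, cKO minus WT (y axis), for all 15527 genes tested (grey) and the 49 helicase genes (coloured by call). Ddx60 lies lowest at -1.57, and the other helicase genes lie within 1 unit of no change.

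Of the 16 helicases of ribosome biogenesis, 8 fell (50%, against 17.8% of all genes and 29.7% of genes at like level) and 0 rose (against 19.5% and 27.1%), with a median log2 fold change of -0.20. With the medians of tested genes aligned, 1 of them, Ddx56, was called higher (0.14, adjusted p = 0.0064). Ddx21, a nucleolar helicase that acts in transcription and processing of ribosomal RNA, had log2 levels of 9.69 and 9.86 in WT and of 8.96 in both cKO libraries. It fell 1.76-fold (log2 fold change -0.82, SE 0.07, limma adjusted p = 9.4e-10). Dhx33, which promotes transcription of ribosomal RNA genes, went from 8.26 and 8.38 to 7.56 and 7.78 (log2 fold change -0.65, SE 0.11, adjusted p = 2.4e-05). Dhx37, which releases U3 snoRNA from the small subunit precursor, had 8.39 and 8.62 in WT against 7.92 and 7.94 in cKO (log2 fold change -0.58, SE 0.10, adjusted p = 4.8e-05). In all 3 genes the groups did not overlap, as in every called member and in 65.1% of all genes tested. Ddx18, the counterpart of yeast Has1, went from 9.91 and 9.94 to 9.44 and 9.49, a 1.38-fold fall (adjusted p = 8.4e-07).

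Smaller falls were seen for Ddx10 (log2 fold change -0.33), Ddx27 (-0.30), Ddx50 (-0.30) and Ddx24 (-0.17). Of the 8 that fell, the calls of Ddx21 and Ddx18 held without the trend in the prior variance.

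The other 8 helicases of ribosome biogenesis did not pass the test. Ddx47, Ddx52, Ddx54 and Ddx56, which work on small and large subunit precursors, had log2 fold changes of 0.02, 0.03, -0.06 and 0.07, with 95% intervals that reached no lower than -0.18 and no higher than 0.16. With the library sum Ddx54 was called lower (-0.18, limma adjusted p = 0.013). Ddx31 and Ddx55 both stood at -0.10 and Ddx49 at -0.22. Ddx49 was called lower without cKO replicate 1 (-0.33, adjusted p = 0.032) and with the library sum (-0.35, adjusted p = 0.015). Genes on the opposite strand share 29.8% of the exonic length of Ddx49 (Homer3) and 14.2% of that of Ddx54 (Gm43579). Ddx51, a low gene, had 3.42 and 3.59 in WT and 3.99 and 4.26 in cKO, so its groups did not overlap, but the interval of its log2 fold change of 0.62 ran from -0.13 to 1.38. Values within this group ran from -0.82 for Ddx21 to 0.07 for Ddx56 among the well-expressed ones. Lower calls took in 17.8% of all genes and 29.7% of genes between the helicases' level quartiles. Of 34 other ribosome assembly factors, 25 fell (73.5%) and 1, Tsr1, rose, with a median of -0.44. Among them Npm1, a nucleolar chaperone, fell by 0.80, Nop56, a core box C/D snoRNP protein, by 0.74 and Polr1a, the largest subunit of RNA polymerase I, by 0.65 on the log2 scale.

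Of the 9 spliceosomal helicases 3 rose and 1 fell (median log2 fold change -0.05). The 44.4% called lay near the 37.4% of all genes and under the 56.8% of genes at like level, and with the library sum 2 were higher and 4 lower. Dhx15, the counterpart of yeast Prp43, which takes spliceosomes apart and also serves ribosome assembly, stood at 10.35 in both WT libraries and at 9.78 in both cKO libraries. Its log2 fold change was -0.57 (SE 0.05, adjusted p = 4.1e-09). Ddx42, a protein of the U2 snRNP, went from 11.15 and 11.18 to 11.64 and 11.63, a 1.39-fold rise (log2 fold change 0.47, SE 0.04, adjusted p = 2.6e-10). Dhx8, the counterpart of Prp22, which releases spliced mRNA, rose from 9.24 and 9.21 to 9.58 and 9.53 (log2 fold change 0.33, SE 0.07, adjusted p = 2.4e-04). In these 3 genes, as in every called member, the groups did not overlap (65.1% of all genes tested).

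Ddx41, found in catalytic spliceosomes and mutated in some familial myeloid leukaemias, rose by 0.21 on the log2 scale (SE 0.05, adjusted p = 0.0011), from 10.66 and 10.78 to 10.89 and 10.98. An antisense gene covers 17.4% of its exonic length, and the sources used here do not say if strand was used in counting. Dhx38, Dhx16, Ddx46 and Ddx23, the counterparts of Prp16, Prp2, Prp5 and Prp28, had log2 fold changes of 0.08, -0.05, -0.08 and -0.12, and Dhx35 had -0.23; these 5 did not pass. Ddx23 was called lower under quantile normalization and with the library sum (-0.25, limma adjusted p = 8.6e-04). Ddx46 (-0.20, adjusted p = 0.035) and Dhx35 (-0.36, adjusted p = 0.037) were also called lower with the library sum. Of 26 other spliceosome proteins listed, 13 fell (50%) and 3 rose (11.5%), with a median of -0.11. Among all genes 17.8% fell and 19.5% rose, and among genes between the helicases' level quartiles 29.7% and 27.1%. Aqr, itself a helicase of the spliceosome, fell 1.80-fold, Sf3a1 1.54-fold and Snrpa 1.48-fold, while Txnl4a rose 1.33-fold, Slu7 1.27-fold and Cdc40 1.20-fold. Of 39 tested protein partners of all the helicases, 11 fell and 7 rose (median -0.04). The 46.2% called lay between the 37.4% of all genes and the 56.8% of genes between the helicases' level quartiles. Rbm5, a splicing regulator whose G-patch activates Dhx15, rose 1.69-fold, and Gpatch1, another G-patch protein, 1.16-fold.

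All 4 mRNA export helicases had both cKO libraries below both WT libraries, and 3 of them were called lower, against 32.4% and 17.8% of all genes. At like level 29.7% of genes were called lower. Ddx39b (UAP56), a subunit of the TREX complex that hands spliced mRNA to the export machinery, had log2 levels of 10.43 and 10.55 in WT and of 9.53 and 9.64 in cKO. It fell 1.88-fold (log2 fold change -0.91, SE 0.06, adjusted p = 5.6e-12). Among the members only Ddx60 changed more. Its paralogue Ddx39 stood at 12.19 in both WT libraries and at 12.05 and 12 in cKO, 1.12-fold lower (log2 fold change -0.16, SE 0.03, adjusted p = 2.1e-04). The opposite-strand gene Adgre5 shares 17.4% of the exonic length of Ddx39. Ddx19a, which frees mRNA from proteins at the nuclear pore, went from 6.93 and 6.75 to 6.43 and 6.40 (log2 fold change -0.43, SE 0.17, adjusted p = 0.046). That call was lost when any 1 of the 4 libraries was left out, with adjusted p from 0.053 to 0.32. Its neighbour Ddx19b had a log2 fold change of -0.17 (95% interval -0.43 to 0.08) and did not pass. Among listed partners, Alyref, which Ddx39b brings onto mRNA, fell 1.79-fold.

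Of the 5 helicases of translation and mRNA turnover, 3 fell and 1 rose, with a median log2 fold change of -0.38. Calls in either direction took in 37.4% of all genes and 56.8% of those at like level. Ddx6, which joins translational repression to decapping in P-bodies, stood at 9.59 and 9.56 in WT and at 10.14 in both cKO libraries. It rose 1.48-fold (log2 fold change 0.57, SE 0.06, adjusted p = 1.3e-08 by limma), the largest change among the members called higher. Its binding partner Eif4enif1 (4E-T) also rose, 1.30-fold. Ddx3x, the counterpart of yeast Ded1, which helps ribosomes scan structured leaders, fell from 8.56 and 8.65 to 8.19 and 8.09 (log2 fold change -0.47, SE 0.09, adjusted p = 2.1e-04). Dhx29, which aids scanning on the small ribosomal subunit, fell from 9.28 and 9.29 to 8.91 and 8.89 (log2 fold change -0.38, SE 0.07, adjusted p = 1.1e-04). Dhx34, a factor of nonsense-mediated decay, fell from 8.09 in both WT libraries to 7.65 and 7.55 (log2 fold change -0.50, just short of 0.5 before rounding, SE 0.11, adjusted p = 6.4e-04). In these 4 genes, as in every called member, the groups did not overlap (65.1% of all genes tested). Dhx36, which unwinds G-quadruplexes, had a log2 fold change of -0.17 with overlapping groups.

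**Figure D3:**
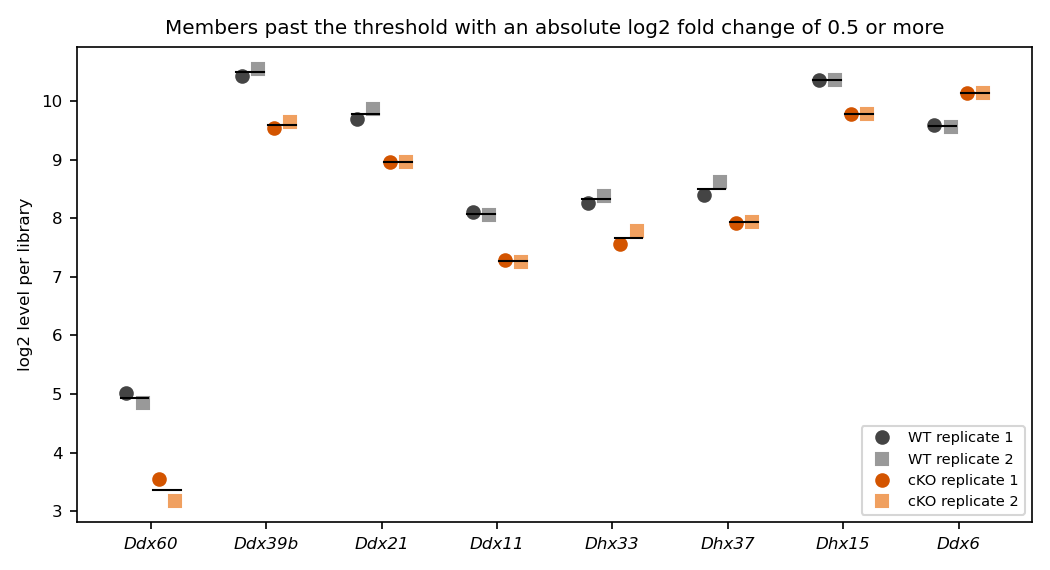
Log2 level (y axis) in each of the 4 libraries for the 8 members (x axis) past the threshold with an absolute log2 fold change of at least 0.5, with black lines at group means. The 7 genes that fell have both cKO points under both WT points, and Ddx6 has both cKO points at 10.14 above its WT points.

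Of the 5 helicases linked to transcription and small RNA processing, 3 fell and 1 rose (median log2 fold change -0.23). Among all genes 17.8% fell and 19.5% rose, and among genes at like level 29.7% and 27.1%. With the library sum 4 of these 5 helicases were lower and 0 higher. Ddx5 (p68), a coregulator of transcription and part of the microprocessor, went from 13.38 and 13.34 to 13.17 and 13.09 (log2 fold change -0.23, SE 0.03, limma adjusted p = 4.0e-07). Its paralogue Ddx17 (p72) moved the other way, from 7.61 and 7.75 to 8.08 and 8.02 (log2 fold change 0.38, SE 0.11, adjusted p = 0.0076). Without WT replicate 1 Ddx17 was not called (adjusted p = 0.099). Ddx20 (Gemin3), a part of the SMN complex that builds snRNPs, fell by 0.26 (SE 0.06, adjusted p = 6.4e-04), from 10.08 and 10.03 to 9.76 and 9.83. Gemin5, another part of that complex, fell 2.20-fold.

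Dhx9, a helicase of double-stranded RNA, had a log2 fold change of -0.37 (SE 0.12, adjusted p = 0.020), from 7.63 and 7.77 to 7.40 and 7.26. Its call did not survive leaving out WT replicate 2 (adjusted p = 0.21) or cKO replicate 2 (adjusted p = 0.075), nor quantile normalization (adjusted p = 0.053) or alignment of the medians of tested genes (adjusted p = 0.051). Ddx1, a member of the tRNA ligase complex, had a log2 fold change of -0.08 and did not pass (adjusted p = 0.062). It was called lower under quantile normalization (-0.19, adjusted p = 7.5e-05), with the library sum (-0.21, adjusted p = 8.8e-06) and with a minimum score of 5 (adjusted p = 0.048). The microprocessor gene Dgcr8 fell 1.83-fold.

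The remaining members act in separate places. Ddx60, an interferon-induced factor of antiviral sensing, had the largest change, from 5.02 and 4.85 in WT to 3.55 and 3.18 in cKO. It fell 2.96-fold (log2 fold change -1.57, SE 0.34, limma adjusted p = 6.4e-04), and the call held in every fit tried. Ddx11, a DNA helicase needed for cohesion of sister chromatids, fell from 8.10 and 8.05 to 7.29 and 7.26 (log2 fold change -0.80, SE 0.11, adjusted p = 3.0e-06), alongside the mitosis genes given above, whose part in this fall was not tested. Of the 2 mitochondrial members, Dhx30, which serves mitochondrial ribosome assembly, fell by 0.26 (SE 0.06, adjusted p = 0.0011), from 9.82 and 9.85 to 9.58 and 9.57, and Ddx28 had a log2 fold change of 0.06 with overlapping groups.

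The germ cell members did not pass. Ddx4 (Vasa) was low, at 3.08 and 1.91 in WT and 2.64 and 3.24 in cKO, and Ddx25 stood between 6.03 and 6.62 over the 4 libraries. Dhx32, Dhx40, Dhx57 and Ddx59, which are less studied, had log2 fold changes of 0.10, 0.10, -0.26 and -0.37 and did not pass either. With the library sum Dhx57 (-0.38, limma adjusted p = 0.037) and Ddx59 (-0.50, adjusted p = 0.042) were called lower. Of 19 tested helicases and eIF4A genes outside the rule, 6 fell (31.6%, against 17.8% of all genes and 29.7% between the members' level quartiles). The 19 had a median log2 fold change of -0.08, and 1 rose. Besides Aqr, the falls were led by Helz2, an interferon-linked helicase, and Mov10, a helicase of RNA silencing and decay, with log2 fold changes of -0.64 and -0.57.

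Paralogues were set side by side, pair by pair. In the Ddx39 and Ddx39b pair, whose aligned coding bases were 81.2% identical, the log2 level of Ddx39 minus that of Ddx39b was 1.76 and 1.64 in WT and 2.52 and 2.37 in cKO, so the gap widened by 0.74. The difference between Ddx21 and Ddx50 (72.1% identical), neighbours on chromosome 10, was 0.13 and 0.26 in WT and -0.28 and -0.36 in cKO. For Ddx5 and Ddx17 (71.2% identical) it went from 5.77 and 5.59 to 5.09 and 5.07. For Ddx19a and Ddx19b (93.2% identical), neighbours on chromosome 8, it went from -0.81 and -0.77 to -1.01 and -1.07. The WT and cKO values of these differences did not overlap in any of the 4 pairs. With 2 libraries against 2 the exact two-sided permutation p was 0.333 for each of the 4 pairs, the smallest this design allows, and adjustment over the 4 leaves it there. Ddx19a and Ddx19b are so alike that reads could be split between them, so their separate values are uncertain.

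**Figure D4:**
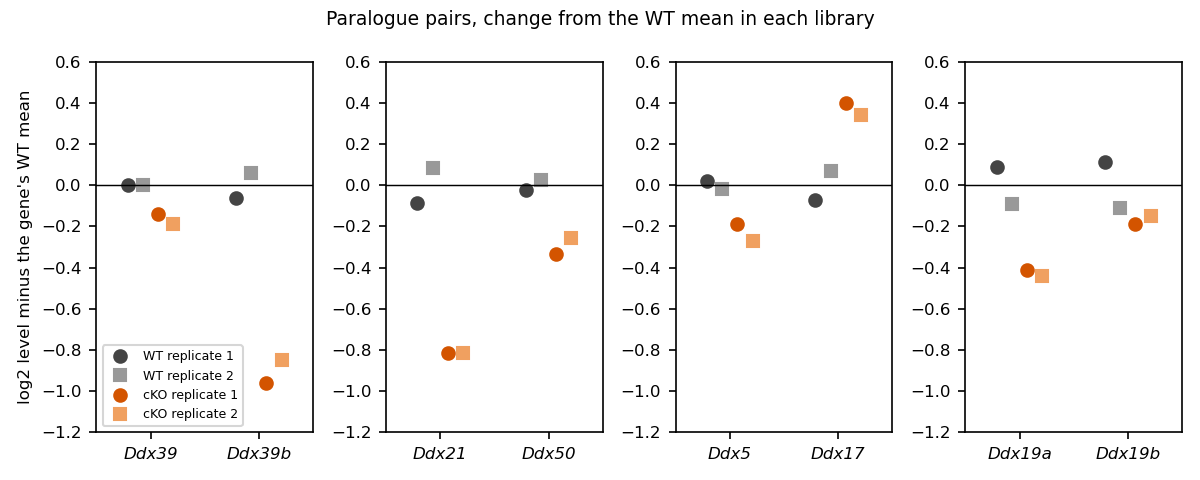
Log2 level of each gene minus that gene's WT mean (y axis) in each library for the 4 paralogue pairs (x axis: the 2 genes of a pair). In cKO, Ddx39b and Ddx21 lie lower than Ddx39 and Ddx50, Ddx5 and Ddx17 lie on opposite sides of 0, and Ddx19a lies lower than Ddx19b.

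Levels of different genes were compared per kilobase of exon (GENCODE M21) and per 1000000 of the library sum. In WT, Ddx5 was the highest member at 164, followed by Ddx56 at 84.8, Ddx39 at 81.5, Ddx1 at 65.9, Ddx41 at 56.6 and Ddx42 at 48.8. The single WT libraries of these 6 were 165.3 and 161.8, 84.0 and 85.7, 81.3 and 81.8, 65.2 and 66.6, 54.0 and 59.2, and 48.0 and 49.5, so neighbours in this order did not overlap between libraries. The order also depends on the exonic length, which joins all annotated exons of a gene. It was 5155 bases for Ddx39 and 2533 for Ddx56. Before division by length, Ddx39 had the higher mean log2 level in WT (12.19 against 11.22). The levels per kilobase and their order also rest on the factor of 0.693. Read as plain log2, gaps between genes before division by length would be 1.44 times as large. The order under that reading was not worked out. Which exons these cells use was not tested. Ddx39b stood at 34.2, less than Ddx39 in each WT library. Ddx18 (35.2) and Ddx39b could not be ordered, as Ddx39b ranged from 32.7 to 35.8 and Ddx18 from 34.8 to 35.7. At the low end stood Ddx60 at 0.317, Ddx51 at 0.195 and Ddx4 at 0.182.

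The E-box CACGTG, the preferred site of MYC and related factors, which reads the same on both strands, was looked for in RefSeq promoter windows on GRCm38.p6, from 250 bases before to 50 after each start. It was present for 7 of the 44 members with a window (15.9%), against 8.09% of 27025 genes. Of the 16 ribosome biogenesis helicases 1 (6.25%), Dhx33, held it, with its first base 35 bases before the start. The other members with it were Ddx5, which fell, Ddx42, which rose, and Ddx4, Ddx25, Dhx35 and Dhx40, which were not called. A gene was counted if any of its windows held it. Ddx42 held it at chr11:106230416-106230715 but not in the window over its annotated gene start, chr11:106216676-106216975. Ddx5 held it only at chr11:106788858-106789157 among its windows. In Ddx25 it began 37 bases after the start. Which starts these cells use was not tested.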

How the data were processed

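RNA was sequenced from 4 libraries, 2 WT and 2 cKO. The submitters' processing notes name featureCounts, DESeq2, CASAVA, HISAT2 2.1.0 and the build GRCm38 without saying what each did. The authors' deposited values (score, -3.19 to 27.9, 1 for each gene in each library) are logarithmic, but their base and transformation are not given in the sources used here. Depth is unknown. In 11 bins of level, noise between replicates was compared with Poisson noise. The median ratio was 1.17 in WT and 1.43 in cKO if the score times 0.693 is log2, and 7.84 and 9.67 if the score is plain log2, so the score was multiplied by 0.693. The Poisson comparison assumes that back-transformed levels are reads. The choice of factor also assumes that replicates differ by little more than counting noise, which was not tested.

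The planned test for log-scale values was used. The 15527 genes that reached a score of 1 in 2 or more libraries entered limma 3.58.1 in R 4.3.3 (lmFit, eBayes with trend), two-sided, Benjamini-Hochberg adjusted over all of them, threshold 0.05. Members, roles and lists were chosen with earlier results of these data known. Full values were given for called members with an absolute log2 fold change of at least 0.5 and up to 4 others per role, and for up to 3 called genes per direction of each list of other genes. Each column name matched 1 sample title, leaving 0 columns unused. Same-numbered deviations had a correlation of 0.0127 across genes. Paralogue coding sequences were aligned globally with Biopython 1.88, and exact permutation tests used SciPy 1.17.1. Alternatives were other filters, prior variances, scalings, weights, thresholds, a replicate block and leaving out each library. Some listed genes outside the family are not reported here.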

Additional observations from a re-analysis of the deposited data

How the results depend on the processing

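Without a prior variance that follows the level, 2 members were higher and 7 lower, and 17 of 26 calls were lost; of all genes 1177 were higher and 1090 lower. With levels divided by the library sum, an alternative chosen after the data were seen, 3 were higher and 29 lower, and the median member log2 fold change was -0.297. Under the other alternatives the count of higher members stayed between 4 and 6, that of lower members between 17 and 22, and 0 called members changed sign. Leaving out each library in turn gave 4 to 5 higher and 19 to 21 lower members, with medians from -0.188 to -0.154. With the replicate block, 5 were higher and 21 lower, the same 26 members as without it; the labels do not say that the numbers pair the samples.

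Some members that were not called changed sign. Under quantile normalization Ddx47 stood at -0.03, Ddx52 at -0.01 and Ddx56 at -0.03. With the medians of tested genes aligned Ddx54 stood at 0.0042 and Dhx16 at 0.02. With the library sum Ddx28 stood at -0.06, Ddx47 at -0.10, Ddx52 at -0.09, Ddx56 at -0.05, Dhx32 at -0.02, Dhx38 at -0.05 and Dhx40 at -0.02. Over the fits without 1 library, the log2 fold change ran from -0.39 to 0.19 for Ddx25, from -0.14 to 1.02 for Ddx4, from -0.16 to 0.01 for Ddx46, from -0.01 to 0.05 for Ddx47, from -0.00071 to 0.06 for Ddx52 and from -0.12 to 0.01 for Ddx54. It ran from -0.15 to 0.05 for Dhx16, from -0.43 to 0.08 for Dhx36, from -0.01 to 0.16 for Dhx38 and from -0.0036 to 0.21 for Dhx40. The cause was not tested. Depth is unknown, and the number of libraries limits precision: among members not called, the 95% interval reached 0.07 to 0.98 on either side of the estimate.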
